A study of Mus musculus with 6 samples.

Results

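B lineage cells were found among the dissociated cells of the mouse main olfactory epithelium, the tissue that holds the olfactory sensory neurons (OSNs). A cell was kept if it had at least 1000 unique molecular identifiers (UMIs, each counted as 1 captured RNA molecule) and 500 detected genes. A kept cell was a member if its UMIs of *Cd79a* and *Cd79b* summed to at least 3, with fewer than 10 UMIs of *Omp*, the marker of mature OSNs, and fewer than 5 of *Cyp2g1*, a marker of sustentacular cells. This gave 1475 B lineage cells of 24830 kept cells, or 5.94%, in 6 libraries. *Cd79a* and *Cd79b* encode the signalling chains of the B cell receptor and of its precursor form, so their high level in these cells comes from the choice of the cells.

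The libraries came from single-cell RNA sequencing of a study of HP1 proteins and olfactory receptor choice. Swap replicates 1 and 2 were from mice in which both copies of *Cbx1*, the gene of HP1β, carry an allele that Cre changes so that HP1α, the product of *Cbx5*, is made in its place, together with a Cre driver. Control replicate 1 was labelled wild type with the same Cre driver, whereas control replicate 2 was labelled as carrying both swap alleles without Cre. The other 2 libraries were from mice with gg8-tTA, a driver of immature OSNs, and tetOP2iresGFP, a tTA-dependent transgene of the P2 receptor with GFP (tetOP2 library), and from mice with gg8-tTA alone (gg8tTA library), and the series' design text describes the cells as sorted. The design text says that all mice carried gg8-tTA with or without tetOP2iresGFP, whereas the genotype labels of the swap and control libraries name neither, and no ages were given. The labels call the cell type of every library OSN, whereas OSN genes were low in the cells described here. The swap libraries held 63277934 and 60729307 UMIs in all, the control libraries 58498968 and 59045808, the tetOP2 library 32005196 and the gg8tTA library 35298494.

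B cells are made in steps. A pro-B cell rearranges its heavy chain genes with the recombinase Rag1 and Rag2, and the terminal transferase Dntt adds bases at the joins. The new heavy chain is first displayed with the surrogate light chain, made of Vpreb1 and Igll1, and the signal of this pre-B cell receptor is followed by a burst of division, after which small pre-B cells leave the cell cycle and rearrange a light chain. Vpreb3 is a related chain of precursor and immature cells, *Ms4a1* encodes the mature marker CD20, and mature B cells display antigen on MHC class II. In the mouse, precursors are a population of the bone marrow and mature cells of blood and lymphoid organs.

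The markers bore out the name. The genes with the highest mean ratio between B lineage cells and the other cells of the same library were *Cd79a*, *Cd79b*, *Vpreb3*, *Vpreb1* and *Mzb1*, a chaperone of antibody-making cells. They were followed by *Ptprcap*, *Igll1*, *Fcrla*, *Pou2af1* and *Dntt*, and the ratio of *Vpreb3* lay between 6.65 and 7.56 on the log2 scale in the 6 libraries. Since the cells had been chosen on *Cd79a* and *Cd79b*, these ratios are given without a test. *Ebf1*, a transcription factor that starts the lineage, had a UMI in 64.4% of members, and *Pax5*, which fixes it, in 10.4%. In each cell thinned to 1000 UMIs, *Vpreb3* was found in 83.9% of members and in 0.434% of mature OSNs (median depths of 3285 and 12277 UMIs before thinning), 3.17% of sustentacular cells and 0.567% of neutrophil lineage cells. The same shares for *Rag1* were 21.6% of members against 0.0334% of mature OSNs. *Vpreb3* and *Rag1* were thus detected far more often in the members than in the cell types that should lack them, at equal depth. *Ebf1* did not separate them, with 31.4% of members and 34.1% of mature OSNs at 1000 UMIs.

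Of the 9 plasma cell genes measured 8 had UMIs, led by *Mzb1*, *Xbp1* and *Txndc5*, and 59.9% of members had at least 3 UMIs of the list. The remaining gene was absent. *Jchain*, the joining chain of secreted antibody, had no UMI in any of the 1475 cells, which allows a share of up to 0.203% of cells with a UMI. The 12 immunoglobulin constant genes of the list, and with them the antibody classes, were not analysed here.

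Members were shallower than most cells. Their median depth was 3783 and 3082.5 (swap replicates 1 and 2), 3207 and 3132 UMIs (control replicates 1 and 2), or 27.8% to 37.6% of the median of all kept cells of the library, against 6084 and 6635 UMIs in the tetOP2 and gg8tTA libraries. *Omp* and 7 other OSN genes together reached 70.5 to 287 CPM (the usual scaled UMI count of a gene, relative to all UMIs of the summed cells) in the 6 summed B lineage populations. Genes of other blood cells moved with single libraries. The 12 neutrophil genes summed to 18534 CPM in the members of the tetOP2 library, 4701 and 2504 in swap, 4349 and 703 in control and 174 in gg8tTA, with *S100a9* the most abundant. The 10 macrophage genes summed to 1272 and 1255 CPM in swap, 960 and 732 in control, 538 in tetOP2 and 244 in gg8tTA, with *Apoe* the most abundant. The 12 erythroid genes reached 37.0 to 361 CPM, with *Hbb-bt* at 0, and the 9 measured T and NK genes 15.1 to 148 CPM, with *Cd3e*, *Cd8a* and *Ncr1* at 0. The 12 genes of dendritic cells summed to 174 to 335 CPM, led by *Tcf4*. Of the 1475 members 58 (3.93%) also passed the gate of another cell type, 25 of them that of the neutrophil lineage and 16 that of macrophages, and 24 were predicted doublets. The gene with the most UMIs was *Rn45s*, a ribosomal RNA precursor, with 0.0368% to 7.04% of the members' UMIs by library, and *Malat1*, *Tpt1*, *Tmsb4x*, *Ptma*, *Rps24*, *Rps20*, *Rpl41* and *Fau* were among the next.

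The threshold of 3 UMIs fell in a thin part of the distribution. Just outside it were 73 cells with 2 UMIs of *Cd79a* and *Cd79b*, just inside 30 cells with 3 and 19 with 4, and 1339 members had 8 or more. A UMI of *Ms4a1* or of a precursor gene was present in 20.5% of the cells with 2 UMIs, 33.3% of those with 3 and 99.3% of those with 8 or more. Pairs of libraries shared between 0 and 13 cell barcodes, and no barcode was a member in both libraries of a pair.

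B lineage cells made up very different shares of the libraries. They were 141 of 5003 cells (2.82%, exact 95% binomial interval 2.38 to 3.32) in swap replicate 1 and 526 of 4947 (10.6%, 9.79 to 11.5) in swap replicate 2. In control they were 262 of 5091 (5.15%, 4.56 to 5.79) and 472 of 4433 (10.6%, 9.75 to 11.6). The tetOP2 library held 43 of 2563 (1.68%, 1.22 to 2.25) and the gg8tTA library 31 of 2793 (1.11%, 0.755 to 1.57). Counting error is all that these intervals cover. Of the barcodes in the matrices 92.5% and 84.4% were kept in swap, 90.6% and 57.5% in control, and 100% in tetOP2 and in gg8tTA. What part this has in the shares was not tested. The swap and control groups overlapped, with means of 6.73% ± 5.53 and 7.90% ± 3.89 (SD, n = 2 each, exact two-sided permutation p = 0.667). With 2 libraries a group the smallest possible p is 0.3333.

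Both replicates numbered 2, whose library names share 1 prefix, held 10.6%, and both replicates numbered 1, which share another, held 2.82% and 5.15%. Within the prefixes the difference between swap and control was -2.33 points (replicates 1) and -0.0147 points (replicates 2). The other blood cells did not follow 1 order. Erythroid cells were 3.32% and 5.17% of swap and 2.00% and 10.0% of control libraries, whereas the neutrophil lineage was 8.95% and 7.52% in swap and 2.44% and 4.60% in control. As a share of the 4 blood cell gates and themselves, B lineage cells were 16.4% and 41.2% in swap, 45.0% and 39.9% in control, 32.6% in tetOP2 and 20.4% in gg8tTA.

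**Figure D1:**
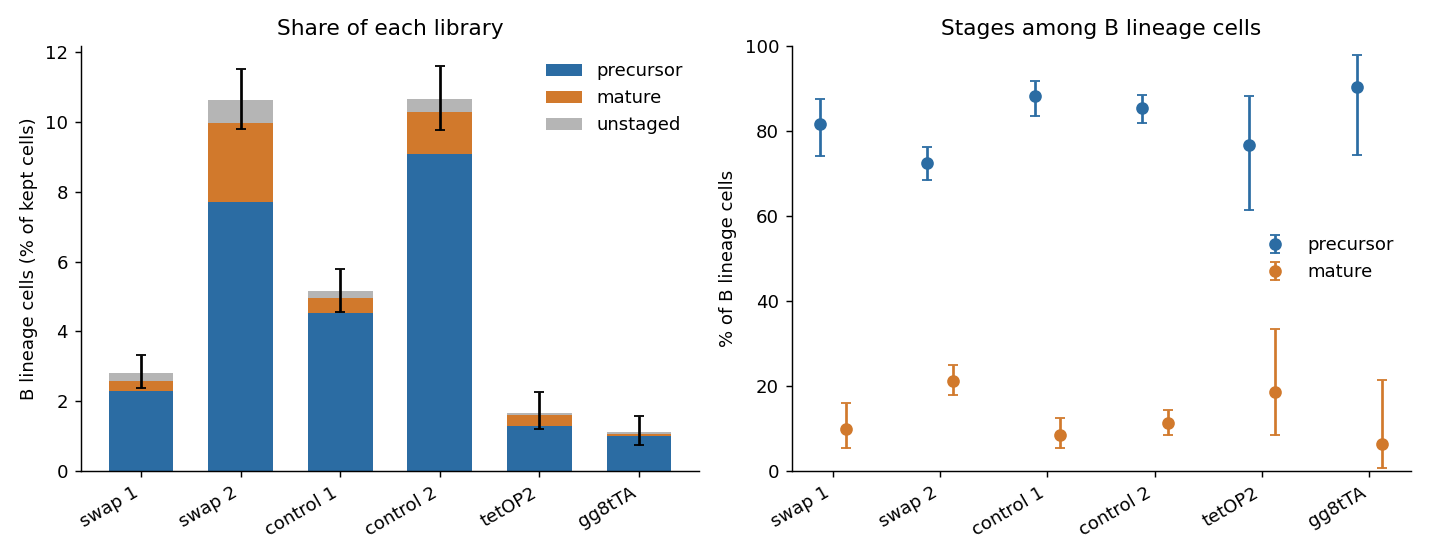
Share of B lineage cells among kept cells of each library, split into stages (left, bars; error bars are exact 95% binomial intervals of the total), and precursor and mature shares of the B lineage cells (right, points with the same intervals). Swap replicate 2 and control replicate 2 both reach 10.6%, and by the stage rule precursors outnumber mature cells in each of the 6 libraries.

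By a stage rule that counts *Vpreb3*, most B lineage cells were precursors. A cell was called precursor if its UMIs of *Vpreb1*, *Vpreb3*, *Rag1*, *Dntt* and *Igll1* summed to at least 2 and exceeded those of *Ms4a1*, and mature if it had more *Ms4a1* UMIs than precursor UMIs. There were 1191 precursors (80.7%), 211 mature cells (14.3%) and 73 unstaged cells (4.95%). Precursors were 81.6% and 72.4% of the members in swap, 88.2% and 85.4% in control, 76.7% in tetOP2 and 90.3% in gg8tTA. Mature cells were 9.93% and 21.3% in swap, 8.40% and 11.2% in control, 18.6% in tetOP2 (8 of 43) and 6.45% in gg8tTA (2 of 31). By this rule precursors were 3.40 to 14.0 times as many as mature cells. *Vpreb3* was also found in 73.9% of mature cells, and the shares were not computed without it. What part *Vpreb3* has in this ratio was not tested.

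The precursor share of both swap libraries was below that of both control libraries, with a mean difference of -9.78 percentage points (77.0% ± 6.45 against 86.8% ± 1.97, SD, n = 2 each), but the exact permutation p was 0.3333, the smallest this design allows. Within the library name prefixes the differences were -6.61 and -12.9 points. The mature share was 5.80 points higher in swap with overlapping groups (exact permutation p = 0.667). Without the cells that passed another gate the differences were -8.11 points for precursors and 5.81 for mature cells, and without predicted doublets -10.3 and 6.02. With stages set by exclusive detection they were -7.65 and 1.85. Without swap replicate 2 they were -5.21 and 0.116, and without swap replicate 1 they were -14.3 and 11.5, so their size rested on single libraries. When each cell was thinned to 1000 UMIs before the call, 72.9% were precursors and 10.9% mature.

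Over all members *Vpreb3* had 2102 and 2664 CPM in swap, 2422 and 3063 in control, 2046 in tetOP2 and 2402 in gg8tTA. *Igll1* had 306 CPM in both swap libraries, 232 and 262 in control, and 808 and 832 in the tetOP2 and gg8tTA libraries, which were the highest. *Rag1* had 106 and 296 CPM in swap, 165 and 260 in control, 57.4 in tetOP2 and 56.7 in gg8tTA. The tetOP2 and gg8tTA libraries, whose members divided the most, were thus highest in *Igll1* and lowest in *Rag1*. In these 2 libraries 100% of barcodes passed the minimums. Their members had median depths of 6084 and 6635 UMIs, against 3082.5 to 3783 in the other libraries. What part this has in these levels was not tested. *Ms4a1* had 157 and 401 CPM in swap, 204 and 310 in control, 304 in tetOP2 and 60.2 in gg8tTA, and its lowest (gg8tTA) and highest (swap replicate 2) libraries were also those with the lowest and highest mature share. These are levels of the genes that define the stages and are given without a test.

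The 5 precursor genes divided the precursors further. *Vpreb3* was found in 99.7% of precursors and also in 73.9% of mature cells, so it marked the lineage more than the stage. *Rag1* was found in 50.5% of precursors, *Vpreb1* in 27.0%, *Igll1* in 24.0% and *Dntt* in 16.5%. In the 211 mature cells *Vpreb1*, *Dntt* and *Igll1* had no UMI and *Rag1* was found in 0.474%, values largely set by the stage rule. Cells with *Dntt* nearly always had *Vpreb1* and *Igll1*, but not the reverse. Of the 196 members with *Dntt*, 98.0% also had *Igll1*, 98.5% *Vpreb1* and 83.7% *Rag1*, while 1.53% had *Ms4a1*. Of the 322 members with *Vpreb1*, 59.9% had *Dntt*, and of the 287 with *Igll1*, 66.9% did. Of the 602 members with *Rag1*, 27.2% had *Dntt* and 30.6% *Igll1*. A set of 415 precursors (34.8%) had *Rag1* with neither *Dntt* nor *Igll1*.

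*Ms4a1* was found in 428 members, and 87.1% of these had *Vpreb3* while 4.67% had *Rag1*. Among the precursors 195 (16.4%) had *Ms4a1* beside more precursor UMIs. Of these 18.5% had *Il7r* against 70.4% of the precursors without *Ms4a1*, and 0.513% against 17.1% had *Rag2*, the partner of Rag1. These classes were chosen after the values were seen, and detection rises with depth. The median depth was 2649 UMIs in the precursors with *Ms4a1* and 3606 in those without.

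**Figure D2:**
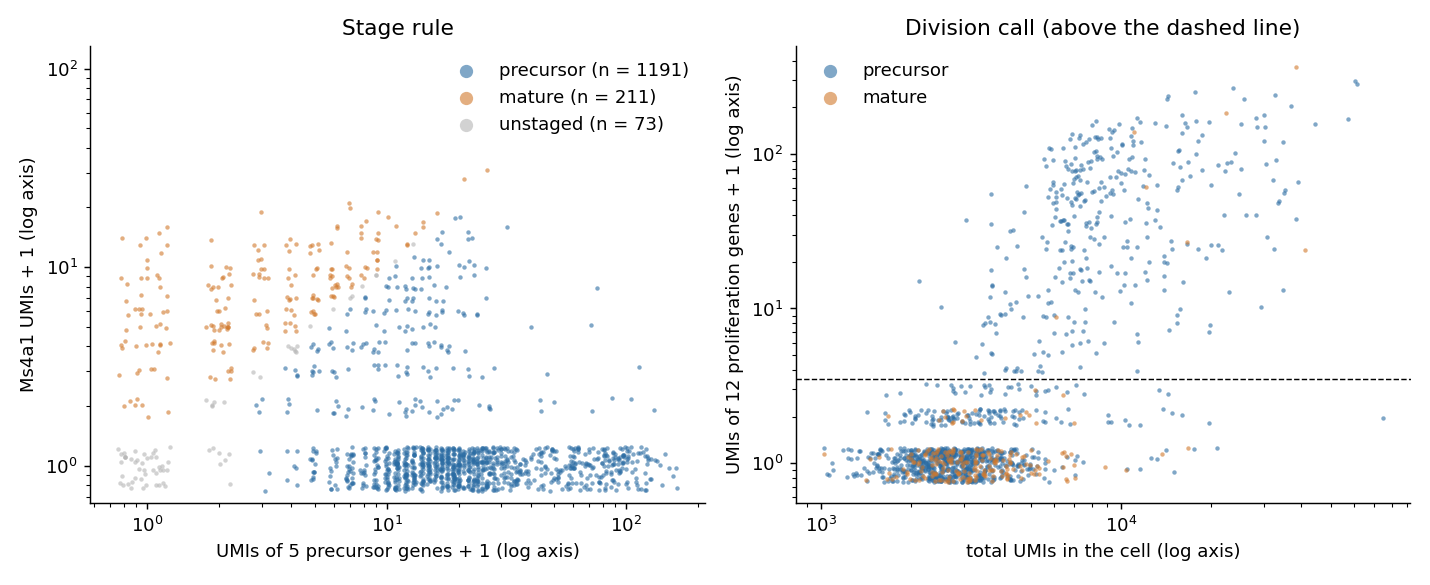
Each point is 1 B lineage cell. Left, summed UMIs of the 5 precursor genes against UMIs of *Ms4a1*, both plus 1 on log axes with a small random shift, by stage; right, total UMIs against UMIs of 12 proliferation genes plus 1, where the dashed line marks the minimum of 3 UMIs for a dividing cell. Precursor cells extend to high totals and high proliferation UMIs, and 7 of the 211 mature cells lie above the line.

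Dividing cells were mostly precursors. A cell was called dividing with at least 3 UMIs over 12 proliferation genes, mostly of mitosis, such as *Mki67* and *Top2a*. Genes of DNA replication were a separate S phase list, of which 35.0% of members had at least 3 UMIs, so the rule can miss replicating cells. By this rule 354 of 1191 precursors (29.7%, exact 95% binomial interval 27.1 to 32.4) and 7 of 211 mature cells (3.32%, 1.34 to 6.72) were dividing. The dividing share of precursors was 40% and 25.5% in swap, 26% and 28.0% in control, 63.6% in tetOP2 and 60.7% in gg8tTA. That of mature cells was 0 of 14 (which allows up to 21.4% by 3 counts and 23.2% by the exact interval) and 1 of 112 cells in swap, 1 of 22 and 3 of 53 in control, 2 of 8 in tetOP2 and 0 of 2 in gg8tTA, where the exact interval reaches 84.2%. In the 5 libraries with at least 5 cells of each stage the difference was positive in 5 of 5, with a mean of 29.4 points ± 9.14 (SD, n = 5, exact two-sided sign-flip permutation p = 0.0625, the smallest that 5 libraries allow). With division called at 1000 UMIs per cell and stages at full depth it was 26.7 points, again positive in 5 of 5 (exact permutation p = 0.0625).

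The call was clear for most cells. Of the precursors 689 had no proliferation UMI and 243 had 20 or more, against 33 with 2 and 12 with 3 UMIs. Of the 7 dividing mature cells 6 had 20 or more. Dividing precursors had a median of 8170 UMIs against 2754 in the others, and of the 64 members over 20000 UMIs 60 were dividing. Without these 64 cells the difference was 28.0 points, without the cells that passed another gate 28.6 points, and without predicted doublets 30.2 points.

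Division went with the class of the precursor. Of the 286 precursors with *Igll1*, 52.8% were dividing, against 22.4% of those without, and the share with *Igll1* was the higher one in 5 of 6 libraries. Of the precursors with *Rag1*, 23.0% were dividing, against 36.6% of those without, in the same direction in 6 of 6 libraries. Those with *Ms4a1* were dividing in 6.67%. At 1000 UMIs per cell the shares were 44.8% and 25.5% with and without *Igll1*, and 23.5% and 36.9% with and without *Rag1*. The share with *Igll1* was again the higher one in 5 of 6 libraries, but in gg8tTA it was 46.7% against 61.5% without. Cells with *Igll1* were also deeper, with a median of 6640.5 UMIs against 2971, and what part depth has in its detection was not tested. No test was made of these classes, since they were chosen after the values were seen.

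B lineage cells as a whole stood between erythroid cells and macrophages in their dividing share. At 1000 UMIs per cell 36.2% and 20% of members were dividing in swap, 24.8% and 28.0% in control, 46.5% in tetOP2 and 48.4% in gg8tTA. Erythroid cells were above in 6 of 6 libraries, with a mean of -49.8 points ± 15.7 (SD, n = 6) for B lineage minus erythroid (exact sign-flip permutation p = 0.0312, adjusted over 3 comparisons 0.0469). Macrophages were below in 6 of 6, by 24.8 points ± 14.2 (SD, n = 6, exact permutation p = 0.0312, adjusted 0.0469). The neutrophil lineage was below in 5 of 6, by 13.6 points ± 13.1 (SD, n = 6, exact permutation p = 0.0625, adjusted 0.0625), with swap replicate 2 at -2.08. The tetOP2 and gg8tTA libraries had the highest shares, in 43 and 31 members. Their matrices held no barcode below the minimums and their members were deeper. Thinning does not change which cells a matrix holds, and what part this has was not tested. By the same rule 4.04% to 5.68% of mature OSNs and 5.75% to 11.9% of sustentacular cells were called dividing, against 4.55% to 14.5% of macrophages.

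**Figure D3:**
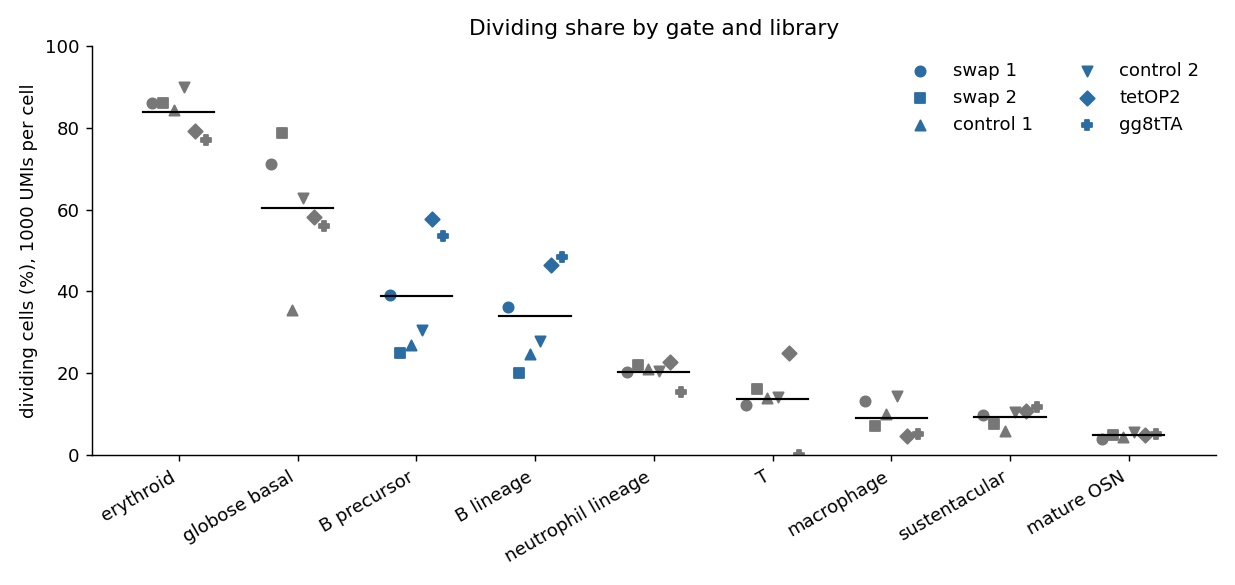
Share of dividing cells in each gate (percent, each cell thinned to 1000 UMIs), with 1 point per library and a line at the mean over the 6 libraries; B lineage cells and their precursors are in blue. B lineage cells (20% to 48.4%) lie below erythroid cells and above macrophages in every library.

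Precursors and mature cells were then compared across all genes, to see which genes other than those of the stage rule differed. UMIs were summed per stage in the 4 swap and control libraries, which had at least 10 cells of each stage (115, 381, 231 and 403 precursors and 14, 112, 22 and 53 mature cells in swap replicates 1 and 2 and control replicates 1 and 2), and tested with the library as a block by edgeR's quasi-likelihood test. To be called, a gene needed an adjusted p (Benjamini-Hochberg) under 0.05 together with a change of more than 0.58 on the log2 scale in either direction. The stages were cut from UMIs of the same cells, so genes that vary with the 6 stage genes from cell to cell differ by construction, and these tests describe what goes with the stage calls. A gene could pass the filter on low counts through the sums of 1 stage alone. It could then hardly be called except as higher in that stage, so the counts per list below describe the lists and do not test them. List genes beyond the most abundant ones are named below after their values were seen. Of 5899 genes tested 700 were called (11.9%), 356 higher in precursors (6.03%) and 344 higher in mature cells (5.83%). The median log2 fold change of all genes tested was -0.00116.

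MHC class II genes marked the mature cells. All 8 tested genes of the list of 10 were higher in mature cells, with a median log2 fold change (precursor over mature) of -3.60, against 5.83% of all genes. *Cd74*, the invariant chain that guides class II molecules to their peptides, had 9684 and 7712 CPM in mature cells of swap and 5082 and 5242 in control, against 452, 604, 409 and 379 CPM in the precursors. The groups were far apart (log2 fold change -3.92, SE 0.19, adjusted p = 4.58e-07 by edgeR). *H2-Aa*, the α chain of the I-A molecule, had 1999, 1646, 641 and 847 CPM in mature cells (swap replicates 1 and 2, then control replicates 1 and 2) and 86.9, 86.2, 53.7 and 27.3 in precursors (log2 fold change -4.38, SE 0.26). *H2-DMa* and *H2-DMb1*, chains of the peptide exchanger (-3.73 and -2.96), and *H2-Oa* and *H2-Ob*, chains of its inhibitor (-2.65 and -2.71), were higher in mature cells as well. Macrophages also express this list. Their own 10 genes summed to 5996, 80.7, 188 and 379 CPM in the mature cells (swap replicates 1 and 2, then control replicates 1 and 2). The class II genes summed there to 16331, 11674, 7345 and 7523 CPM. In the precursors of these 4 libraries the class II genes summed to 506 to 880 CPM. Without the cells that passed another gate 8 of 8 were called again. What part macrophage RNA has in the difference was not tested.

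*H2-Eb1*, the β chain of the I-E molecule, split the libraries. In mature cells it had 2014 CPM in swap replicate 1 and 581 in control replicate 1, but 75.5 in swap replicate 2 and 108 in control replicate 2. The same split held in precursors, with 59.2 and 46.6 against 7.27 and 5.09 CPM, and in macrophages, with 2241 and 1290 against 12.6 and 27.5 CPM. In the tetOP2 and gg8tTA libraries the macrophages had 922 and 29.8 CPM. Replicates 1 of both genotypes, which share a library name prefix, were thus above replicates 2 in both cell types, and the stage effect was called with the library as a block (log2 fold change -4.20, SE 0.31, adjusted p = 4.20e-06 by edgeR).

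The class II genes share a promoter element known as the Y box, bound by the factor NF-Y beside the RFX and CREB sites through which the class II activator CIITA acts. As these genes moved together, the 120 bases before the transcription start were read for the genes of the list that RefSeq's promoter table for GRCm38.p6 holds (7 of 10). The letters TGATTGG, searched on both strands, were in 6 of the 8 promoter stretches of these 7 genes. They were in 5.15% of all 32851 promoters of the same length. The gene without a match was *H2-DMa*, and *Cd74*, *H2-Ab1* and *Ciita* had no entry and were not read. The sequences of the 6 stretches with a match are given on the strand of the gene, 5′ to 3′, with the match in capitals. They are shown to let the position and surroundings of the shared letters be read. A match is not a measured site.

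H2-Aa, chr17:34287824-34287943, minus strand: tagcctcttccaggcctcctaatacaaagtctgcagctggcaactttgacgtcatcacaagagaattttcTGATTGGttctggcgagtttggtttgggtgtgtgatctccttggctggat
H2-Eb1, chr17:34305747-34305866, plus strand: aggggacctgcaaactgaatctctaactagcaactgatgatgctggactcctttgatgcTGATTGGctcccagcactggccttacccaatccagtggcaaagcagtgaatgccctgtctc
H2-DMb1, chr17:34153071-34153190, plus strand: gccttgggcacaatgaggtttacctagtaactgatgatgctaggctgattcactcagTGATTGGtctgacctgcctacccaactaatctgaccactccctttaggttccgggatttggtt
H2-DMb2, chr17:34145129-34145248, plus strand: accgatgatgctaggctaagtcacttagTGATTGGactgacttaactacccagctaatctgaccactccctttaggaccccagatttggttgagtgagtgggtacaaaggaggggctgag
H2-Oa, chr17:34092259-34092378, plus strand: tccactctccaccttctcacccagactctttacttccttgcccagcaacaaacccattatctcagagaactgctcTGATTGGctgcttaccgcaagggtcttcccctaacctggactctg
H2-Ob, chr17:34238785-34238904, plus strand: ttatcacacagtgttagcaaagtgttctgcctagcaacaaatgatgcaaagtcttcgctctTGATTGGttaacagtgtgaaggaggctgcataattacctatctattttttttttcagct

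The match began 45 to 92 bases before the start, and lay on the strand of the gene in each of the 6. *H2-DMb2* did not pass the filter on low counts in the stage comparison and has no value there.

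Most tested genes of the mature B cell list were higher in mature cells. This list shares *Cd74* and the I-A and I-E genes with the class II list. Of its 23 tested genes 19 were higher in mature cells, against 5.83% of all genes, and none was lower. *Cd52*, a surface glycoprotein of lymphocytes, had 3021, 3279, 2340 and 3795 CPM in mature cells (swap replicates 1 and 2, then control) and 310, 486, 477 and 628 in precursors (log2 fold change -2.77, SE 0.20). *Cd83*, a surface protein of activated antigen-presenting cells, had 496, 367, 265 and 246 CPM against 12.6, 26, 13.4 and 16.2 (log2 fold change -4.27, SE 0.26). *Fcmr*, the receptor for IgM, had 294, 492, 325 and 405 against 18.9, 48.3, 36.3 and 41.2 CPM (log2 fold change -3.43, SE 0.21). The 4 libraries did not overlap between the stages in any of these, which their choice by p and by sign largely sets. *Fcer2a*, the low-affinity IgE receptor of follicular B cells, and *Bank1*, an adaptor of the B cell receptor, were higher in mature cells, with log2 fold changes of -5.50 and -3.84. *Cd37*, a tetraspanin of mature lymphocytes, was higher as well (-1.05, SE 0.18). Among those that did not pass the test were *Klf2*, *Cd38* and *Tnfrsf13b*, with log2 fold changes of -0.59, 0.11 and -0.73.

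*Egr3*, a transcription factor induced by receptor signals, had 155, 393, 179 and 263 CPM in mature cells and 8.81, 32.7, 10.3 and 15.7 in precursors (log2 fold change -3.96, SE 0.23). *Junb*, a subunit of the factor AP-1, had 2247, 1498, 1717 and 1176 against 274, 326, 336 and 206 CPM (log2 fold change -2.56, SE 0.19). The stages did not overlap in either, and these genes were chosen in the same way.

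Precursors carried the genes of early B cells. Of the 10 tested genes of the progenitor list, 9 were higher in precursors, against 6.03% of all genes. Some, such as *Il7r*, passed the filter on low counts only through the precursor sums, which fixes their direction. *Ly6d*, a surface protein first seen in B-biased progenitors, was higher in mature cells (log2 fold change -1.45, SE 0.17). *Il7r*, the receptor for the growth factor of precursors, had 209, 419, 235 and 395 CPM in precursors. In the mature cells of the 4 libraries there were 2 UMIs in all, against 2122 in precursors, a ratio of 139 per UMI sequenced (95% interval of the counts 38.4 to 1149). *Tifa*, an adaptor of NF-κB signalling, had 524, 662, 558 and 586 CPM against 77.5, 59.9, 51.2 and 45.9 (log2 fold change 3.34, SE 0.24). *Sox4*, a factor needed for pro-B cells, had 589, 503, 594 and 495 CPM against 15.5, 31.3, 85.4 and 54.2 (log2 fold change 3.48, SE 0.28). *Smarca4*, the ATPase of a chromatin remodeller, had 564, 702, 525 and 664 CPM against 77.5, 78.1, 137 and 150 (log2 fold change 2.46, SE 0.23). *Myl4*, a myosin light chain, was higher by 3.54 (SE 0.24), and *Ptgr1*, a reductase of prostaglandins, had 636 UMIs in precursors against 1 in mature cells (ratio 83.3, 95% interval of the counts 14.9 to 3297). *Cd24a*, a surface protein high on immature B cells, was higher by 0.93 (SE 0.27).

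Other genes of the progenitor list were near the floor. *Kit* and *Flt3*, receptors of the earliest lymphoid progenitors, had 9.56 to 23.9 and 0 to 7.17 CPM over all members of a library, and did not enter the test. In the precursors of the 4 libraries *Cd34* had 23 UMIs, against 0 in mature cells.

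Part of the recombination genes were higher in precursors. Of the 8 tested genes other than *Rag1* and *Dntt*, 4 were higher in precursors, against 6.03% of all genes, and none in mature cells. The median log2 fold change was 1.10. *Xrcc6*, a subunit of the Ku end-binding complex, had 201, 205, 148 and 189 CPM in precursors against 0, 15.6, 17.1 and 20.9 in mature cells (log2 fold change 3.49, SE 0.33). *Lig4*, the ligase that closes the joins, was higher by 2.38 (SE 0.46), and *Hmgb1* and *Hmgb2*, DNA-bending cofactors of the recombinase that are also abundant in dividing cells, by 2.00 and 2.36. *Xrcc5*, the partner of Xrcc6, had a log2 fold change of 0.20 (SE 0.53), and *Prkdc* and *Dclre1c*, which open the hairpin ends, of -0.66 and -0.56, none past the test. *Rag2* had 209 UMIs in the precursors of the 4 libraries and 0 in the mature cells, at least 9.13-fold higher if 3 UMIs are allowed over the summed mature cells and 7.36-fold by the lower bound of the exact 95% counting interval.

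**Figure D4:**
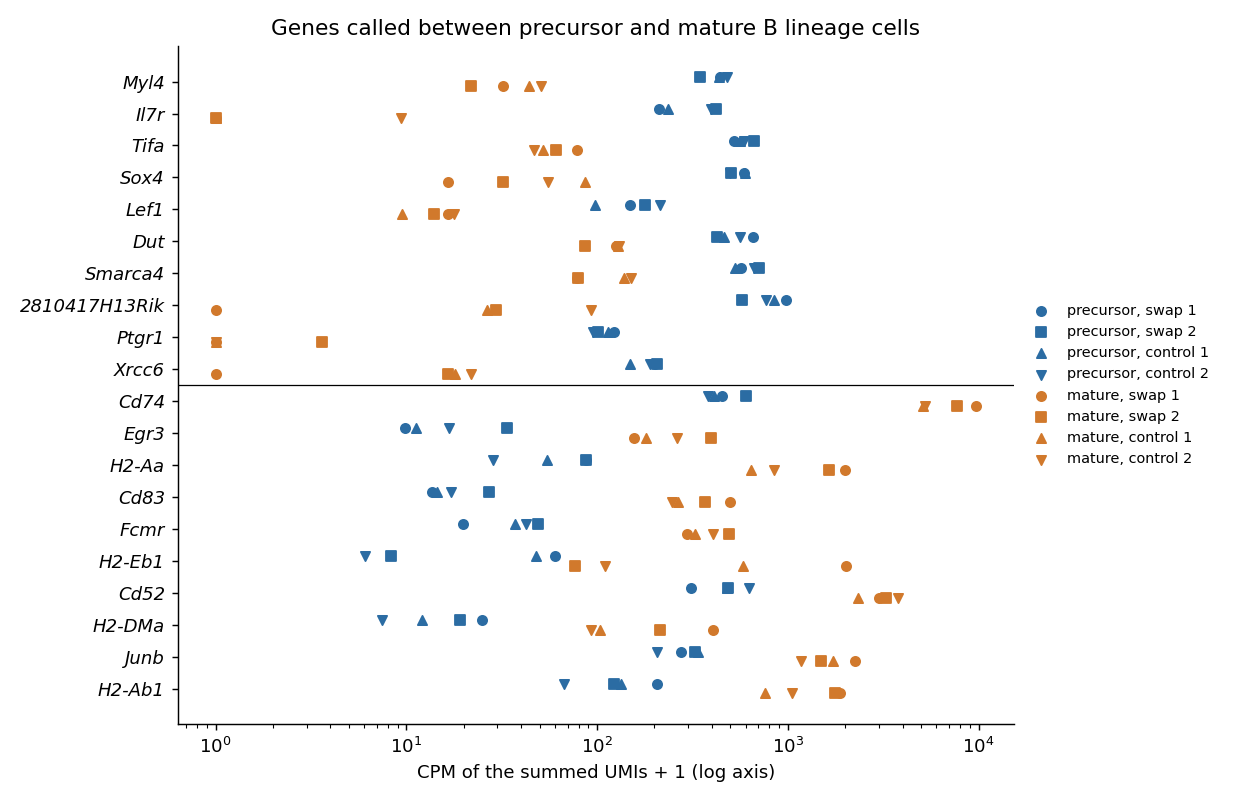
Level (CPM of the UMIs summed over the cells of a stage, plus 1, log axis) of the 10 genes with the smallest adjusted p higher in precursors (top) and the 10 higher in mature cells (bottom), in 4 libraries. In each gene the 4 precursor values (blue) and the 4 mature values (orange) do not overlap. The genes were chosen by p and by 1 sign in all libraries, which largely sets this.

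Genes of DNA synthesis were mostly higher in precursors. Of the 16 tested genes of the S phase list 15 were higher in precursors, against 6.03% of all genes. The list's median log2 fold change was 1.84, and *Ung*, a repair glycosylase, was not called (0.39, SE 0.54). When a precursor could hold no *Ms4a1* UMI and a mature cell no precursor UMI, 5 of the 16 were called and the median was 0.90. *Dut*, which clears dUTP, had 652, 424, 460 and 559 CPM in precursors and 124, 85.9, 128 and 129 in mature cells (log2 fold change 2.11, SE 0.20). *2810417H13Rik*, a gene of a PCNA-binding protein, had 983, 573, 844 and 765 against 0, 28.6, 25.6 and 91.7 CPM (log2 fold change 4.13, SE 0.39). Of the 12 proliferation genes 7 were higher in precursors, *Top2a* by 2.93 (SE 0.49) and *Mki67* by 2.49 (SE 0.47). The other 5, among them *Ube2c* (1.66, SE 0.52) and *Cenpf* (1.41, SE 0.50), were not called. Without the cells that passed another gate 12 of 12 were called (median log2 fold change 4.23 against 1.63 with them), and so were 12 of 12 without predicted doublets (1.79) and without cells over 20000 UMIs (3.33). The mature sums are small, and in control replicate 2 a single mature cell of 38372 UMIs held 16% of the UMIs of its stage. With the dividing cells left out *Dut* was no longer called (0.18), *2810417H13Rik* did not pass the filter on low counts, and 0 of the 5 S phase genes still tested was.

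The transcription factors of the lineage were divided between the stages. Of 19 tested, 6 were higher in precursors and 4 in mature cells, against 6.03% and 5.83% of all genes. *Lef1*, a survival factor of pro-B cells, had 147, 177, 97.1 and 213 CPM in precursors against 15.5, 13.0, 8.54 and 16.7 (log2 fold change 3.56, SE 0.31). *Myb* was higher in precursors by 3.07 (SE 0.37), *Bach2*, which keeps plasma cell genes off, by 1.30 (SE 0.20) and *Tcf3*, which encodes E2A, by 1.18 (SE 0.22). *Erg* had 198 UMIs in precursors and 0 in mature cells. *Irf8* (-1.45), *Pou2f2* (-1.97), *Bcl11a* (-1.40) and *Ikzf3* (-0.98) were higher in mature cells. *Ebf1* (0.61, SE 0.25), *Pax5* (-0.81, SE 0.38), *Spib* (-0.16, SE 0.19), *Pou2af1* (0.43, SE 0.20) and *Foxo1* (-0.01, SE 0.22) did not pass the test.

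Receptor signalling and homing genes were mostly higher in mature cells where they were called. Of 16 tested genes of B cell receptor signalling 4 were higher in mature cells, against 5.83% of all genes. Among them were *Cd22*, an inhibitory coreceptor, *Ptpn6*, the phosphatase it recruits, and *Bank1*. Only 1 of the 16 was higher in precursors, near the 6.03% of all genes. This was *Blnk*, the linker that pre-B cells need to move on (log2 fold change 1.06, SE 0.23). *Syk*, *Btk* and *Blk* were not called. Without swap replicate 2 *Blnk* was no longer called. Of 12 tested homing and survival genes 6 were higher in mature cells, against 5.83% of all genes. *Cxcr5*, the receptor that leads B cells into follicles, had 139, 138, 102 and 108 CPM against 8.81, 16.1, 13.4 and 10.2 (log2 fold change -3.32, SE 0.29). *Ccr7*, which leads lymphocytes into lymph nodes (-2.56, SE 0.23), *S1pr1*, an exit receptor (-1.64), *Tnfrsf13c*, the receptor of the survival factor BAFF (-1.86), and the survival genes *Mcl1* (-1.25) and *Bcl2a1b* (-3.98) were the others. *Il7r* was the list's 1 gene higher in precursors, against 6.03% of all genes. *Cxcr4*, the receptor for the marrow chemokine Cxcl12, had a log2 fold change of 0.58 (SE 0.20), not past the test.

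**Figure D5:**
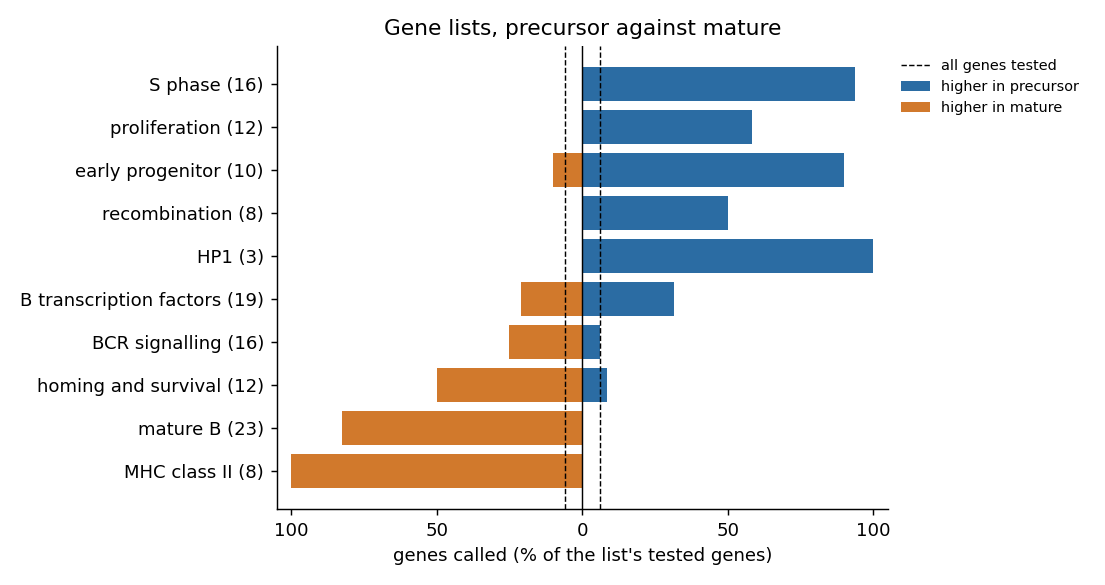
Percent of the tested genes of each list (number tested in parentheses) called higher in precursors (blue, to the right) or in mature cells (orange, to the left), with the genes of the stage rule left out; dashed lines give the percent of all 5899 genes. Of MHC class II genes 8 of 8 were called higher in mature cells, and of S phase and HP1 genes 15 of 16 and 3 of 3 were called higher in precursors.

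Of 7 tested B lineage markers outside the rules 1 was higher in each stage (*Blnk* and *Cd22*), against 6.03% and 5.83% of all genes. Without swap replicate 2 *Blnk* was not called. Of 4 tested plasma cell genes, beside the same shares of all genes, *Mzb1* was higher in precursors (1.06) and *Txndc5* in mature cells (-1.61). Few genes of other cell types were called, and none of the T and NK list was abundant enough to be tested. With all cells and libraries edgeR called none of the macrophage, neutrophil, dendritic, OSN and sustentacular genes tested (1, 3, 2, 2 and 3 genes), while 1 of 3 globose basal genes, *Ezh2*, was higher in precursors, and 2 of 5 erythroid genes, among them *Slc4a1*, were higher in mature cells. The erythroid list summed to 0 and 833 CPM in mature cells of swap and to 17.1 and 1551 in control, against 44.1 to 325 CPM in precursors. The neutrophil list summed to 3115 and 1576 CPM in the mature cells of swap replicate 2 and control replicate 2 and to 4923 CPM in the precursors of control replicate 1. Without the cells that passed another gate 934 genes were called, the 1 erythroid gene still tested was higher in precursors, and the 2 neutrophil genes still tested were higher in mature cells. Without control replicate 1, 2 of 3 neutrophil and 4 of 5 erythroid genes were higher in mature cells, whereas 1 of 4 neutrophil genes was higher in precursors without swap replicate 1 and likewise without control replicate 2. The single macrophage gene tested was higher in precursors when stages were set by exclusive detection, and 1 of 2 dendritic genes was higher in mature cells without cells over 20000 UMIs. DESeq2 called 1 of 12 neutrophil genes higher in precursors, 1 of 8 OSN genes higher in mature cells and 0 of 11 erythroid genes. Without predicted doublets edgeR called 0 of the 1 erythroid gene still tested. With no filter on low counts edgeR called 4 of 12 neutrophil genes higher in precursors and 3 higher in mature cells. Without the predicted doublets 865 were called.

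The genotypes were compared within B lineage cells to ask whether the swap was visible in them. *Cbx1* had 70.4 and 88.8 CPM in swap and 148 and 129 CPM in control, and 69.3 and 95.6 CPM in the tetOP2 and gg8tTA libraries. The swap values lay below both controls but within the range of the other 2 libraries. The log2 fold change was -0.77 (SE 0.27), which edgeR's quasi-likelihood test did not call after adjustment over 9683 genes (adjusted p = 0.9995, unadjusted p = 0.025). In the mature OSNs of the same libraries (at least 10 *Omp* UMIs) *Cbx1* had 2.25 and 3.30 CPM in swap, 24 and 45 UMIs in all, and 83.3 and 154 CPM in control. B lineage cells of the swap libraries therefore held 31.3 and 26.9 times the *Cbx1* level of their own OSNs, and those of the control libraries 1.78 and 0.839 times. The difference of this log2 ratio was 4.57, with an exact permutation p of 0.3333, the smallest that 2 against 2 libraries allow.

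*Cbx5* had 138 and 118 CPM in swap and 87.1 and 170 in control B lineage cells, overlapping groups with a log2 fold change of 0.02 (SE 0.32), and *Cbx3*, the gene of HP1γ, had 352 and 265 against 380 and 334 (-0.20, SE 0.24). The sign of *Cbx5* turned under 5 of 14 other settings. The 3 HP1 genes were higher in precursors than in mature cells, against 6.03% of all genes. The differences were 1.52 (*Cbx1*, SE 0.32), 1.14 (*Cbx3*, SE 0.24) and 1.83 (*Cbx5*, SE 0.36) on the log2 scale. With the dividing cells left out 1 of the 2 still tested was called. Of the 3, 2 were called with stages set by exclusive detection, and likewise without swap replicate 2 or without control replicate 2.

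Across all genes none of 9683 was called between swap and control B lineage cells by edgeR (0%), with 234 at an unadjusted p below 0.05 and a median log2 fold change of -0.00392. DESeq2 called 8, and edgeR with no filter on low counts called 192. Leaving out 1 library gave 28 (without swap replicate 1), 57 (without swap replicate 2), 43 (without control replicate 1) and 51 (without control replicate 2). Without the cells that passed another gate, and without predicted doublets, edgeR again called 0. The MHC class II list had a median log2 fold change of 0.72 and summed to 1725 and 2705 CPM in swap against 1394 and 1326 in control, 1611 in tetOP2 and 1027 in gg8tTA, beside mature shares of 9.93% and 21.3% against 8.40% and 11.2%, and 0 of its 8 tested genes was called. The medians of the S phase, progenitor and B lineage marker lists were -0.01, -0.06 and -0.09, with 0 genes called in each. In simulated data of this design 48 of 50 genes changed 16-fold were recovered but 5 of 50 changed 2-fold, so most of the latter were missed there. The simulation set 1 dispersion for all genes, and its match to these libraries was not tested. How many changes of either size were missed here is thus not known.

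*Ebf1* is the gene that B cells and OSNs share. It had 231 and 361 CPM in B lineage cells of swap, 261 and 398 in control, 208 in tetOP2 and 177 in gg8tTA, and 334 to 532 CPM in mature OSNs. Its relatives separated the 2 cell types. *Ebf2* had 0 to 57.6 CPM in B lineage cells against 513 to 781 in mature OSNs, *Ebf3* 4.78 to 23.3 against 291 to 560, and *Ebf4* 1.52 to 7.17 against 97.0 to 125, with no overlap in the 6 libraries. None of the 5 tested genes of this list was called between the stages, but the count depended on the cells included. Of the 3 still tested, 2 were called higher in precursors without cells over 20000 UMIs and likewise without dividing cells. Of 2 tested, 1 was called higher in precursors without predicted doublets and likewise with stages set by exclusive detection, and without control replicate 1 it was 1 of 5.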

How the data were processed

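Single-cell RNA sequencing libraries (10x Chromium, 6 in all) were deposited as UMI count matrices, 1 per library. Per the labels and the study's methods, the authors aligned reads to mm10 and counted UMIs per gene and cell with Cell Ranger, introns included (matrix header 3.1.0 in the swap and control files), so the counts are raw. Part of the genotype labels and some genes are not reported here.

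The members and gene lists were chosen with earlier results of these data known. Cells were kept and gated by UMI minimums (in the report). Doublets were predicted from simulated pairs of cells (30 neighbours, 0.8% per 1000 cells) and left out in an alternative. For depth, each cell was thinned to 1000 UMIs, where 1 proliferation UMI marked division. UMIs were summed per library, or per library and stage with at least 10 cells, and tested with edgeR 4.0.16 (R 4.3.3, TMM, filterByExpr, quasi-likelihood) or, as an alternative, DESeq2 1.42.0. Genes of the stage and member rules (8) stayed in the fit but were not counted. CPM are per summed UMIs, not per length. Leading genes used a pseudocount of 5 CPM. Python 3.11.15, numpy 2.4.6, scipy 1.17.1 and scikit-learn 1.9.0 were used. Intervals are exact Clopper-Pearson 95% intervals, and a count of 0 allows 3 counts.

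Named genes were, per list, up to 4 with the most UMIs; the 10 genes with the most UMIs; for the stages, of the called genes with 1 sign in all libraries, the 10 per direction of lowest adjusted p; for the genotypes 5 such genes per direction, of which there were none; and the HP1 and stage genes. Others were named after their values were seen. Each library is 1 sample, and the labels do not say how many animals it holds, so p-values measure the spread between these libraries. On simulated data of the stage comparison, with 6037 genes, 107 of 200 changed genes were recovered with 4 false calls. For the swap comparison, with 9706 genes, it was 119 of 200 with 5 false calls. The simulations set 1 dispersion for all genes.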

Additional observations from a re-analysis of the deposited data

Results flagged for a closer look

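The difference between precursors and mature cells was itself compared between swap and control (an interaction term in edgeR's quasi-likelihood fit), and 20 of 5899 genes differed, 18 of them with the more positive effect in swap. The smallest adjusted p values were those of *Sox11* (4.15 on the log2 scale, SE 0.53), *Ebf2* (4.65, SE 0.68), *H1f0* (5.07, SE 0.75) and *Scgb1c1* (3.63, SE 0.54). In control replicate 1 a single mature cell of 41023 UMIs held 35.0% of the UMIs of the 22 mature cells. Without cells over 20000 UMIs 10 genes differed, without cells that passed another gate 16, and without predicted doublets 1. The globose basal cell list, with all 8 genes detected and *Ezh2* the most abundant, summed in the mature cells to 108 and 93.8 CPM in swap against 453 and 692 in control, and in the precursors to 671 and 597 against 538 and 746. The mature OSN list, led by *Gng13*, summed in the mature cells to 46.5 and 156 CPM in swap against 419 and 108 in control, and the sustentacular list, led by *Cyp2a5*, to 31.0 and 112 against 188 and 200.2. The part of these cell types in the result was not tested.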

How the results depend on the processing

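Of 299 values of the 20 named stage genes under the alternatives, 298 kept their direction and their side of the threshold, and *Dut* was no longer called without dividing cells, where *2810417H13Rik* had no value. Between the stages, 700 genes were called, 1143 with no filter on low counts, and 330 to 739 when 1 library was left out (330 without swap replicate 2, 442 without control replicate 2). Between swap and control 0 genes were called by edgeR, 8 by DESeq2 and 192 with no filter on low counts. Leaving out 1 library gave 28 to 57, where the lone library is assumed to vary like the other group. The replicate block gave 0. Of 12 proliferation genes 3 to 12 were called as libraries were left out (7 with all), and 5 of 16 S phase genes were called when stages were set by exclusive detection. The log2 fold change of *Cbx5* between swap and control was 0.02 and turned to -0.0041 with DESeq2, -0.0055 with no filter and -0.0047 without predicted doublets, and ranged from -0.34 to 0.52 as libraries were left out. Without 1 library the share difference ran from -5.08 to 2.74 points, that of precursors from -14.3 to -5.21, and that of mature cells from 0.116 to 11.5. The dividing difference ran from 26.8 to 31.4. The labels do not say what a replicate number marks, and 2 pairs were too few to take it as a pairing. Same-numbered libraries share a name prefix, deviated together (r = 0.344) and differed less in their counts (chi-square per degree of freedom 192 and 92.9) than libraries of the same genotype (409 and 403). With the pairing by number as a block the share differences were again -1.17, -9.78 and 5.80 points (exact permutation p = 0.5). Alternatives leaving out cells of another gate, deep or dividing cells, the swap against control comparison in precursors only, every alternative of the interaction, and thinning for the division call alone (26.7 points, against 27.5 with the stages thinned too) were chosen after seeing the data. The interaction count of 20 fell to 10 and 1 without deep cells and predicted doublets.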
